A study of Mus musculus with 20 samples.

Results

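Chemokines are small secreted proteins that draw leukocytes towards their source, and fibroblasts make many of them. The genes described here are 10 chemokine genes named as a set, namely Ccl2, Ccl5, Ccl7, Ccl9, Ccl12, Cxcl1, Cxcl2, Cxcl5, Cxcl12 and Cx3cl1, read in cultures of mouse embryonic fibroblasts (MEF), which are connective tissue cells grown out of embryos. They were taken through the array's annotation, which gave 9 of the 10 genes at least 1 probe and 16 probes in all, out of 19057 genes with a probe of their own and 45281 probes on the array. Cxcl5, a ligand that attracts neutrophils, had no probe under its symbol and was not analysed here.

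Expression was measured on 20 Illumina bead arrays, 1 per sample. MEF samples were homozygous (hom, n = 3), heterozygous (het, n = 4) or wild type (wt, n = 4) for tm1a, an allele of Mysm1, the gene of an enzyme that takes ubiquitin off histone H2A. Embryonic stem cells (ESC) of the same 3 genotypes, with 3 samples each, served for contrast. The homozygous label reads Mysm1tma1/tm1a and the heterozygous one Mysm1+/tm1a, and the strain background of every sample was C57BL/6. No treatment, embryo age or passage was given in the labels, and nothing said that samples of a genotype came from separate embryos or lines, so the p-values measure the spread between these samples, which may be technical.

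Inflammatory chemokines such as Ccl2, Ccl7, Cxcl1 and Cxcl2 are typically kept low at rest and transcribed within hours of a signal from tumour necrosis factor, interleukin 1 or a Toll-like receptor, through the transcription factor NF-kappaB. Homeostatic chemokines such as Cxcl12 are made by stromal cells without such a signal. In the mouse genome many of these genes lie beside each other. Ccl2, Ccl7, Ccl11, Ccl12 and Ccl8 are consecutive protein-coding genes on chromosome 11, Ccl5, Ccl9 and Ccl6 form another run on the same chromosome, and Cxcl1 and Cxcl2 are neighbours on chromosome 5.

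RefSeq promoter windows on GRCm38.p6, taken here as the 250 bases before the annotated start, were at hand for 6 of the 10 genes (Ccl9, Ccl12, Cxcl1, Cxcl2, Cxcl12 and Cx3cl1). Those of Cxcl1 (chr5:90890995-90891244, plus strand) and Cxcl2 (chr5:90903649-90903898, plus strand) are shown because they share a motif, and that of Nfkbia (chr12:55492648-55492897, minus strand), which encodes the NF-kappaB inhibitor IκBα, because its level followed that of Ccl2 and Ccl7 most closely of the genes that are not members. Capitals in these 3 mark matches to the NF-kappaB consensus, searched on both strands, and all are written 5′ to 3′ along the gene. That of Ccl12 (chr11:82101595-82101844, plus strand) is shown for contrast, as a window with no such match, and its capitals mark the sequence TATAAAA.
Cxcl1: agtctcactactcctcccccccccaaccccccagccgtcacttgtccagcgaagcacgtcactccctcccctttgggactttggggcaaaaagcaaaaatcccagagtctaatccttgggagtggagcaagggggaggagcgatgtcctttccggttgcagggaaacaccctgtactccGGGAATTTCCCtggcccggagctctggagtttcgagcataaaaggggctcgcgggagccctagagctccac
Cxcl2: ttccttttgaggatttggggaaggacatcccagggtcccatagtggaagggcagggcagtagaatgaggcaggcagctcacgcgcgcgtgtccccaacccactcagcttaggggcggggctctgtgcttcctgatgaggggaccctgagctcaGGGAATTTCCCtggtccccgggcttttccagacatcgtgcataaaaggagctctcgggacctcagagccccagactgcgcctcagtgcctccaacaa
Nfkbia: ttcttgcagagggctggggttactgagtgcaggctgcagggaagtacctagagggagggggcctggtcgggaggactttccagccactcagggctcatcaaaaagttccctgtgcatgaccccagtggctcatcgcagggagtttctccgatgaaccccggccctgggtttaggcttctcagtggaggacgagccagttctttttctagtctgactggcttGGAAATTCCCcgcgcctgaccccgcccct
Ccl12: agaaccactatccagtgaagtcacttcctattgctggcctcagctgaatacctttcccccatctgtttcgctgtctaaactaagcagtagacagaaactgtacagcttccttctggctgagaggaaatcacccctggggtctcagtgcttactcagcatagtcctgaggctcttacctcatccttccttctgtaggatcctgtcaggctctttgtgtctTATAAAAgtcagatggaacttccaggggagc

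The 10 bases GGGAATTTCC, the match that both CXCR2 ligand genes carry, stood at bases −71 to −62 from the start in Cxcl1 and at −97 to −88 in Cxcl2, and on the opposite strand at −29 to −20 in Nfkbia. The sequence was read from the Cxcl1 and Cxcl2 windows themselves, so its rarity carries no test. It was found in 28 of the 32851 promoter windows of the same length in the table (0.0852%). The wider NF-kappaB consensus, which includes that sequence, was found in 1281 windows (3.9%), and in Cxcl1 and Cxcl2 it matched on both strands over 11 bases, which are the capitals shown. The window of Ccl12 held no match to the NF-kappaB consensus and 1 copy of TATAAAA at −31 to −25, a sequence present in 1636 windows (4.98%). That of Ccl9 held 1 match to the NF-kappaB consensus, on the opposite strand at −35 to −26, and 3 matches to TATAAAA over both strands. No match was found in the windows of Cxcl12 and Cx3cl1 for any of these motifs. The windows of Cxcl10 and Tnf, genes that are not members, were searched too. That of Cxcl10 held 2 matches to the NF-kappaB consensus and that of Tnf held no match.

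Levels below are log2 intensities after background correction and quantile normalization within the cell type, and a probe counts as detected on an array at a detection p under 0.01 against negative control beads. Probes detected on at least 3 arrays were tested with limma, with p-values adjusted over all 15125 probes tested in MEF and a threshold of 0.05. All 9 genes with a probe entered that test, and each is read by its tested probe with the highest mean level. The targeted gene fitted the labels in MEF: Mysm1 averaged 5.28 ± 0.25 in hom MEF, 6.52 ± 0.16 in het MEF and 7.35 ± 0.24 in wt MEF (SD, n = 3, 4 and 4), and the hom minus wt difference was −2.07 ± 0.19 (SE, limma adjusted p = 0.0046). In ESC Mysm1 averaged 5.57 ± 0.84 in hom, 5.94 ± 1.29 in het and 7.61 ± 0.11 in wt (SD, n = 3 each). Het ESC thus lay nearer to hom than to wt, and all hom and het values lay below all wt values. Neither difference from wt passed in the fit without replicate number (limma adjusted p = 0.297 for hom and 0.952 for het). ESC arrays of the same number deviated together, and that fit ignores this pairing. It therefore cannot settle whether Mysm1 fitted the labels in ESC. Median raw signal per array was 95.7 on MEF hom 3 and 53.2 to 59.95 on the other 19 arrays, with 42.5 to 45.5 beads per probe on average. The number of arrays limits the precision. Arrays lay on 5 slides, and no slide held both hom and wt MEF. Within slides hom can thus be set against wt only by way of the het arrays. The same held for hom and wt ESC, and wt ESC and wt MEF shared no slide either. The first principal component of the MEF arrays, computed without chemokine probes, held 68.2% of the variance and split each genotype: hom 1 and 2, het 1 and 2 and wt 1 and 4 lay on one side, and hom 3, het 3 and 4 and wt 2 and 3 on the other.

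The inflammatory genes Ccl2, Ccl5, Ccl7, Ccl9, Ccl12 and Cxcl1 were lower on all 3 hom arrays than on any of the 4 wt arrays. Of all genes tested, 2.52% were lower in hom MEF without overlap. None of the differences of the members passed the limma test after adjustment over all probes. The inflammatory gene Cxcl2 and a second probe of Ccl12 had hom and wt values that overlapped. The homeostatic gene Cxcl12 and the membrane-bound Cx3cl1 had hom and wt values that overlapped, with means slightly higher in hom MEF. Among wt and het arrays the inflammatory genes spread widely, and 2 arrays, MEF het 1 and MEF wt 4, held the highest levels of most of them.

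Ccl2 encodes the main attractant of CCR2-bearing monocytes. Its level was 6.50, 6.34 and 7.29 on the 3 hom arrays, 10.57, 7.17, 7.12 and 8.74 on the 4 het arrays, and 7.37, 8.98, 8.88 and 10.29 on the 4 wt arrays. The hom arrays all lay below the wt arrays, but hom 3 only just below wt 1, and het arrays overlapped both groups. The lowest array, hom 2, and the highest, het 1, lay 18.8-fold apart, the widest range of the 9 genes. On the raw scale hom 2 was at 104.5 ± 4.24 and het 1 at 1384 ± 57.8 (SE of the bead mean). The hom minus wt difference was −2.17 ± 0.84 on the log2 scale (SE, limma adjusted p = 0.999), which is 22.2% of the wt level.

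Ccl7, which codes for a related monocyte attractant and is the gene next to Ccl2, gave the same order of arrays at its ends. Its level was 8.94, 8.88 and 9.46 on hom arrays, 11.78, 9.46, 9.50 and 10.76 on het arrays, and 9.76, 10.59, 10.66 and 11.59 on wt arrays. Hom and wt arrays did not overlap, and het 1 and wt 4 were again the highest. The hom minus wt difference was −1.56 ± 0.56 (SE, limma adjusted p = 0.999), or 34.0% of wt. A second Ccl7 probe gave −1.83 ± 0.79, also without overlap.

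Cxcl1 encodes a neutrophil attractant that acts through CXCR2. It was at 8.68, 8.60 and 9.23 on hom arrays, at 11.84, 9.13, 8.90 and 10.33 on het arrays, and at 9.24, 10.25, 10.64 and 11.80 on wt arrays. The highest hom array and the lowest wt array were nearly level, and het 1 and wt 4 stood at the top. Between hom and wt the difference was −1.65 ± 0.71 (SE, limma adjusted p = 0.999), or 32.0% of wt. Its neighbour Cxcl2, which acts on the same receptor, was detected on 3 MEF arrays alone, at 7.41 on het 1, 5.15 on het 2 and 7.14 on wt 4. Cxcl2 on the other 8 arrays was between 4.29 and 5.04 and below detection, and a second Cxcl2 probe was detected on het 1 and wt 4 only. The gene therefore passed the filter through these 3 arrays, and its hom minus wt difference of −0.92 ± 0.73 (SE, limma adjusted p = 0.999) amounts to at least 1.30-fold lower, counting undetected hom values at the detection floor. That bound rests on wt 4, the only wt array that detected Cxcl2, and without it there is none.

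Ccl5 encodes an attractant of T cells and monocytes. It was detected on 0 of 3 hom arrays, 2 of 4 het arrays and 4 of 4 wt arrays, and so entered the test through the het and wt arrays. Its level was 4.64, 4.78 and 4.46 on hom arrays, 6.12, 4.81, 4.47 and 5.56 on het arrays, and 5.32, 5.31, 5.83 and 5.87 on wt arrays. All hom values were below all wt values, and Ccl5 in hom MEF was at least 1.42-fold lower than in wt MEF (difference −0.96 ± 0.35, SE, limma adjusted p = 0.999).

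Ccl9 and Ccl12 spread over the arrays in another way. Ccl12, which in the mouse encodes another ligand of CCR2, was at 5.26, 5.34 and 4.69 on hom arrays, at 7.52, 7.31, 5.23 and 5.51 on het arrays, and at 7.62, 5.42, 6.52 and 7.64 on wt arrays. Ccl9, whose product attracts myeloid cells through CCR1, was at 7.06, 6.71 and 6.19 on hom arrays, at 8.40, 8.05, 6.42 and 7.32 on het arrays, and at 8.57, 7.30, 8.10 and 8.30 on wt arrays. The arrays wt 1, wt 4, het 1 and het 2 held the 4 highest levels of Ccl12 and 4 of the 5 highest of Ccl9, whereas for Ccl2 wt 1 was the lowest of the wt arrays and het 2 was close to the lowest of the het arrays. The hom minus wt difference of Ccl12 was −1.70 ± 0.66 and that of Ccl9 −1.41 ± 0.46 (SE, limma adjusted p = 0.999 each), or 30.8% and 37.5% of wt. A second Ccl12 probe gave −1.36 ± 0.60, with hom and wt values that overlapped.

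The 4 arrays with high Ccl12 lay on the same side of the first principal component as hom 1 and hom 2, on which Ccl12 was low. With that component as a covariate the hom minus wt difference of Ccl12 was −2.04 and passed the test (limma adjusted p = 0.0303). That was the only alternative of 25 in which a member was called in this comparison, with adjusted p from 0.0303 to 1.00 over all of them. With slide as a fixed block the Ccl12 difference was −0.04 (limma adjusted p = 0.987) and that of Ccl9 −0.81 (limma adjusted p = 0.60). Those of Ccl2, Ccl7 and Cxcl1 were −2.45, −1.94 and −1.78 (limma adjusted p = 0.38, 0.33 and 0.43). Arrays hom 3 and wt 4, each the only MEF array on its slide, add nothing to that fit. It links hom to wt through het 4 alone, so it cannot settle the part of slide.

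Macrophage markers were high on the same 4 arrays as Ccl12. After removal of genotype means, their mean level had a Pearson's r over the 11 MEF arrays of 0.92 with Ccl12, 0.87 with Cxcl12 and 0.74 with Ccl9, against −0.08 with Ccl2. Array wt 3, with a high Ccl9 and a low marker level, departed from this for Ccl9. Of 20 markers 19 had a probe and 15 were read, and their summed intensity was 4777, 4856 and 2814 on the hom arrays, 10550, 11430, 3324 and 1836 on the het arrays, and 11500, 1684, 2443 and 10140 on the wt arrays. Its range was thus 2814 to 4856 in hom, 1836 to 11430 in het and 1684 to 11500 in wt MEF. All 15 were lower in hom than in wt MEF, with a median difference of −0.31, and by limma 0 were called, with 0 at an unadjusted p under 0.05. In het minus wt MEF 13 of the 15 were higher, with a median of 0.19, whereas Ccl9 and Ccl12 had lower means in het than in wt. Among the defining markers, Ptprc, Itgam, Ctss and Cd53 were detected on no MEF array, while Cd14, C1qb and Lyz2 were detected on all 11. Fewer cells of a type and less RNA per cell cannot be told apart in such bulk samples. The part of these markers in the results on Ccl9, Ccl12 and Cxcl12 was not tested. Within every genotype the mean levels of macrophage markers and of fibroblast markers both followed the sides of the first principal component. The fibroblast mean (20 arrays normalized together) was 10.65, 10.64 and 9.84 on hom arrays and 10.65, 10.74, 10.17 and 9.64 on het arrays. On wt arrays it was 10.79, 9.41, 9.44 and 10.79. Fibroblast markers summed to 27140 to 35400 in hom, 26570 to 36690 in het and 22980 to 35830 in wt MEF. Of these markers 11 of 12 were detected on every MEF array and Postn on none. In hom minus wt MEF the differences were positive for 10 of these 11 and for 3 of the 4 endothelial markers tested, and negative for 5 of the 6 epithelial markers tested. By limma 0 were called in each of these lists, with 0 at an unadjusted p under 0.05. Pluripotency markers were detected on at most 1 MEF array.

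**Figure D1:**
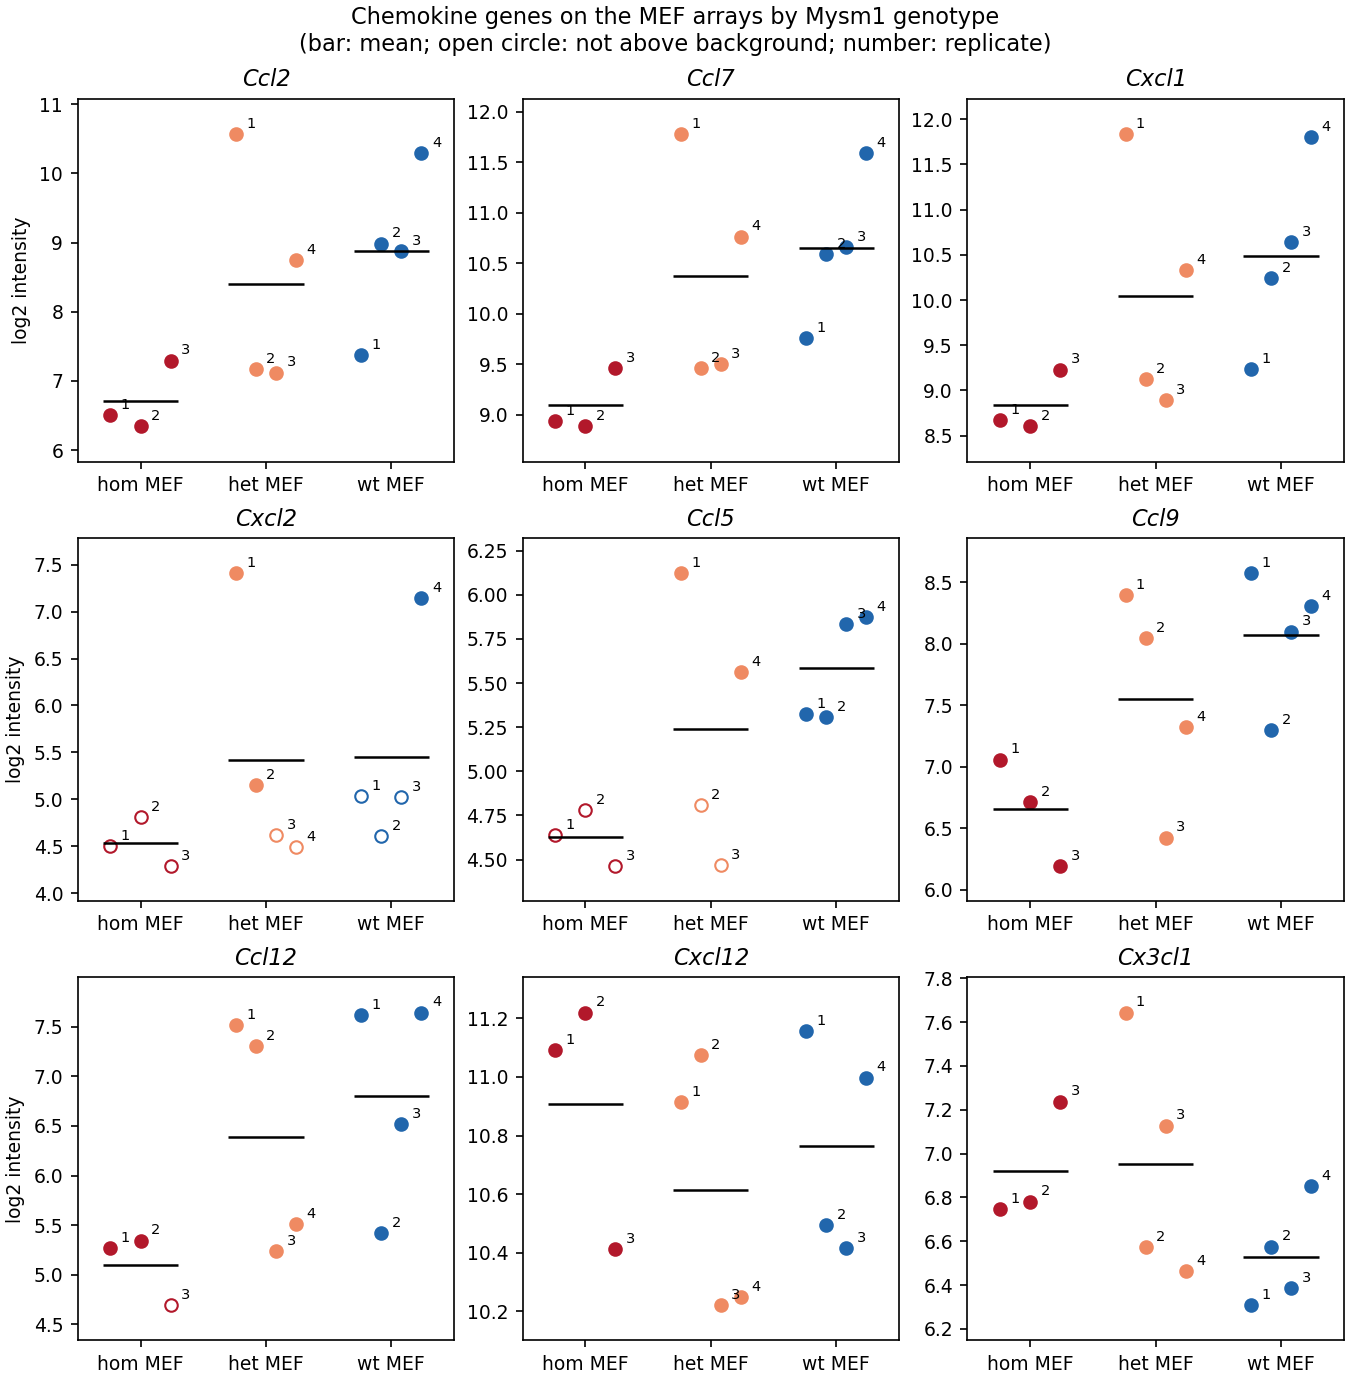
Log2 intensity of the 9 chemokine genes with a probe on each MEF array, by genotype (hom, het, wt), with bars at the group mean and open circles where the probe was not detected. For Ccl2, Ccl5, Ccl7, Ccl9, Ccl12 and Cxcl1 every hom array lies below every wt array, and het arrays span both.

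Cxcl12, the ligand of CXCR4 that stromal cells use to hold stem cells and lymphocytes in place, was at 11.09, 11.22 and 10.41 on hom arrays, 10.91, 11.07, 10.22 and 10.25 on het arrays, and 11.16, 10.49, 10.41 and 10.997 on wt arrays. On the probe read, its arrays spanned 2.00-fold, the narrowest range of the 9 genes as read. They followed the sides of the first principal component within every genotype. Hom minus wt was 0.14 ± 0.29 (SE, limma adjusted p = 0.999), with a 95% interval of −0.49 to 0.77. The other tested probes of Cxcl12, annotated to other transcripts, gave 0.65 ± 0.57 and 0.42 ± 0.54, and the remaining 2 were not detected on any array. Those other tested probes spread more widely, from 7.94 to 9.95 and from 7.39 to 9.95 over the het arrays alone. The narrow range thus holds for the brightest probe only. Cx3cl1, a chemokine anchored in the membrane that binds CX3CR1, was at 6.75, 6.78 and 7.24 on hom arrays, 7.64, 6.57, 7.13 and 6.46 on het arrays, and 6.31, 6.58, 6.39 and 6.85 on wt arrays. Its groups overlapped, and the hom minus wt difference was 0.39 ± 0.28 (SE, limma adjusted p = 0.999).

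Counted over the set, 7 of the 9 genes were lower and 2 higher in hom than in wt MEF, where 45.9% of all genes were lower. Of the 9, 0 were called at an adjusted p under 0.05, where 1 of 15125 probes, that of Mysm1, was called (0.00661%). At an unadjusted p under 0.05, 6 of the 9 were lower, against 1.42% of the 8999 genes tested. The same 6 genes did not overlap between hom and wt, against 2.52% of genes that were lower without overlap. The median difference was −1.41 for the members and 0.02 for all genes. These 6 genes were all high on het 1 and wt 4, although Ccl9 and Ccl12 otherwise spread over the arrays in another way. They are not independent readings. Ccl5 and Cxcl2 were detected on no hom array and entered through het and wt arrays, so their direction was partly fixed by the filter. Both are among the 7 lower genes, and Ccl5 is among the 6. With 1 array left out, the count at an unadjusted p under 0.05 was 2 (Ccl5 and Ccl9) without wt 4, and 3 without any 1 of the hom arrays. In an exact two-sided permutation test, 3 against 4 arrays without overlap gave p = 0.0571, the smallest this design allows.

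For the 7 genes that were lower in hom than in wt MEF, the het mean lay between the hom and wt means, with het arrays at both ends. In het minus wt, 8 of 9 genes were lower, from −0.03 ± 0.68 for Cxcl2 to −0.52 ± 0.42 for Ccl9, and Cx3cl1 was 0.42 ± 0.26 higher (SE). None of the 9 was called (limma adjusted p = 1.00 each), with 0.00661% of all probes called in this comparison, none passed an unadjusted p under 0.05 (0.578% of genes were lower at that p), and all 9 overlapped, where 0.645% of genes were lower and 0.756% higher without overlap. The median difference was −0.34 for the members and 0.0054 for all genes. In hom minus het, 8 of 9 were lower and Cxcl12 was 0.29 ± 0.29 higher. For Ccl5 and Cxcl2, detected on no hom array, the direction was again partly fixed by the filter. The largest difference was that of Ccl2, −1.69 ± 0.84, and Ccl7, at −1.28 ± 0.56, was the 1 gene at an unadjusted p under 0.05, against 0.578% of genes that were lower at that p. None was called (limma adjusted p = 1.00 each), again with 0.00661% of all probes called, and all 9 overlapped, where 1.37% of genes were lower and 1.71% higher without overlap. A second Ccl7 probe gave −1.26 ± 0.79 (SE, limma unadjusted p = 0.139), with hom and het values that did not overlap. The median was −0.89 for the members and 0.01 for all genes. These comparisons share samples with each other.

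Within slide 1, which held 3 het and 3 wt arrays, het minus wt was −0.12 for Ccl2, −0.09 for Ccl7, −0.08 for Cxcl1, −0.37 for Ccl9 and 0.17 for Ccl12, and 0 members were called. Within slide 4, which held hom 1, hom 2 and het 4, hom minus het was −2.32 for Ccl2, −1.82 for Ccl7, −1.68 for Cxcl1, −0.44 for Ccl9 and 0.90 for Cxcl12, and these 5 were called. That fit rests on a single het array, and 7581 of the 12214 probes in it were called.

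**Figure D2:**
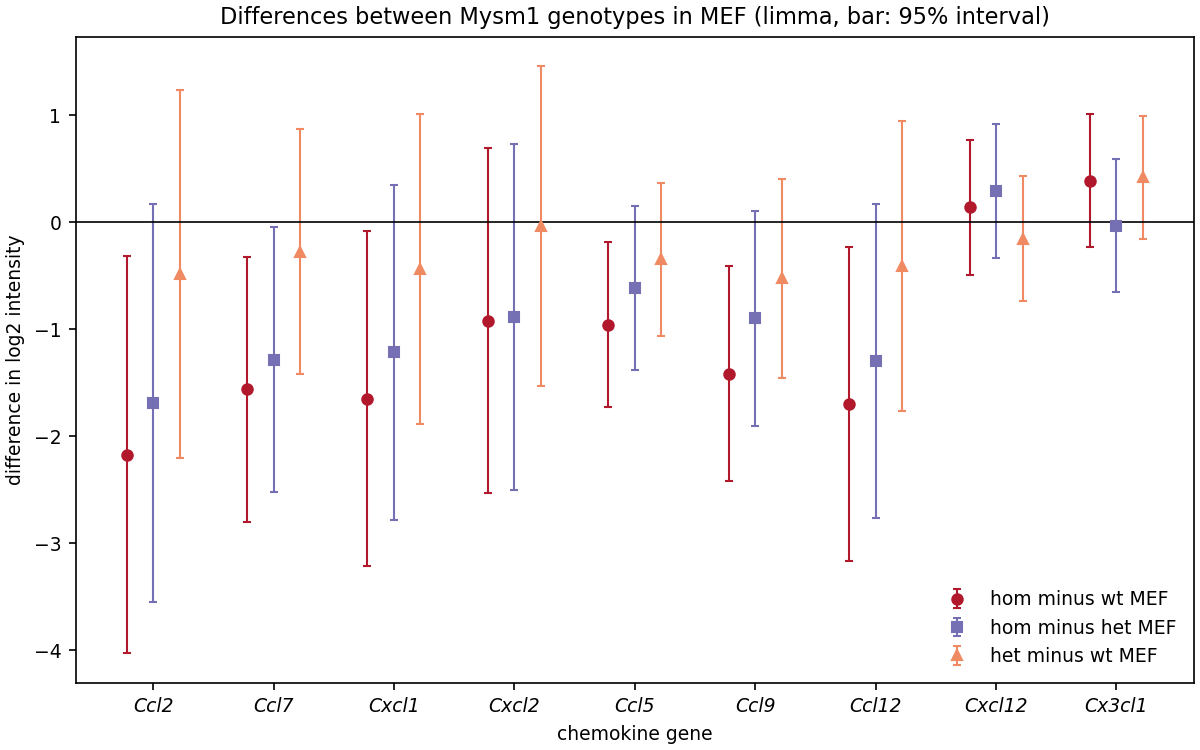
Differences in log2 intensity (hom minus wt, hom minus het and het minus wt MEF) for the 9 chemokine genes, with 95% intervals of the limma fit. Before any adjustment over probes, the hom minus wt intervals of Ccl2, Ccl7, Cxcl1, Ccl5, Ccl9 and Ccl12 lie below 0, those of Cxcl2, Cxcl12 and Cx3cl1 include 0, and the other comparisons include 0 except hom minus het for Ccl7.

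The inflammatory members could be grouped by how they varied among arrays of one genotype. After removal of genotype means, Pearson's r over the 11 MEF arrays was 0.99 between Ccl2 and Ccl7, 0.99 between Ccl2 and Cxcl1 and 0.99 between Ccl7 and Cxcl1, and Ccl5 followed Ccl2 at 0.82. Ccl9 and Ccl12 followed each other at 0.92, but Ccl2 and Ccl12 had an r of 0.19 although both lie in the same run of genes. Ccl12 was closer to Cxcl12, at 0.86. Cxcl2, detected on 3 arrays, had an r of 0.73 with Ccl2 and 0.72 with Ccl12, but a Spearman's rho of 0.35 with Ccl2 and 0.77 with Ccl12. These values describe 11 arrays that share slides and the component above, and carry no test.

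**Figure D3:**
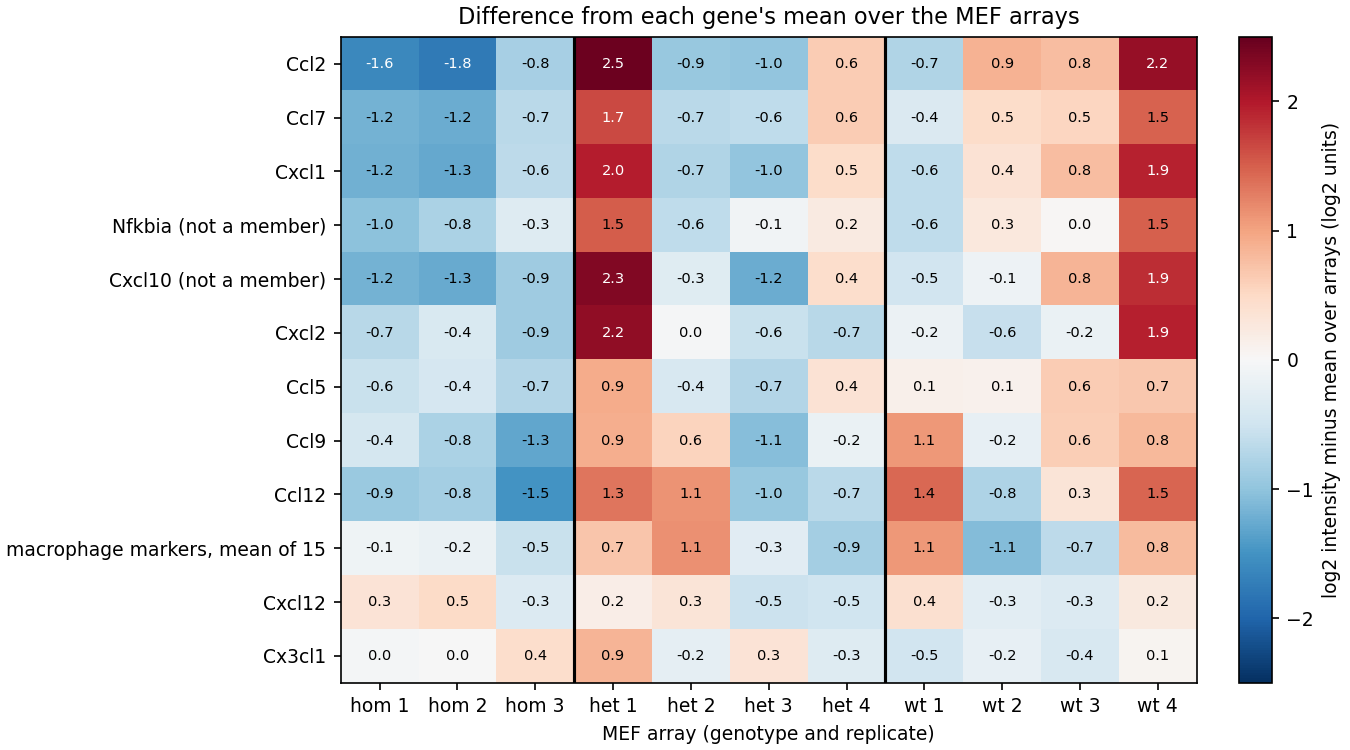
Log2 intensity of each chemokine gene on each MEF array minus that gene's mean over the 11 arrays, with Nfkbia, Cxcl10 and the mean of 15 macrophage markers for comparison and arrays in columns by genotype (hom, het, wt). Ccl2, Ccl7 and Cxcl1 are highest on het 1 and wt 4, whereas Ccl9, Ccl12 and the macrophage markers are also high on wt 1 and het 2.

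Among 8990 other genes, the profiles most like Ccl2 were those of Nfkbia (r = 0.95), Cxcl10 (0.93), an attractant of T cells induced by interferon, and Ch25h (0.92), which encodes cholesterol 25-hydroxylase. For Ccl7 they were Nfkbia (0.94), Cxcl10 (0.94) and Ch25h (0.92), and for Cxcl1 they were Cxcl10 (0.97), Nfkbia (0.94) and Nab1 (0.92). Nfkbia was at 7.34, 7.57 and 8.05 on hom arrays, 9.88, 7.72, 8.27 and 8.59 on het arrays, and 7.73, 8.63, 8.40 and 9.85 on wt arrays, with het 1 and wt 4 highest as for Ccl2. Cxcl10 was at 4.90, 4.83 and 5.20 on hom arrays, 8.41, 5.78, 4.84 and 6.53 on het arrays, and 5.60, 5.96, 6.92 and 7.93 on wt arrays. Cxcl10 thus had het 1 and wt 4 at the top too. Cxcl2 was most like Tnf (0.98), which encodes tumour necrosis factor, then Cd40 (0.95) and Fbrsl1 (0.95). Tnf was detected at 6.88 on het 1, 5.10 on wt 1 and 6.63 on wt 4, and on no other MEF array.

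The other members had different companions. Ccl5 was most like Timeless (0.96), Cxcl9 (0.93) and Xkr5 (0.93). Ccl9 was most like Degs1 (0.99), Vti1a (0.98) and Vkorc1l1 (0.98), and Ccl12 like Acsl3 (0.99), Sumf2 (0.98) and Ctsc (0.98), which encodes a lysosomal protease. Cxcl12 was most like Gtpbp2 (0.996), Fmo1 (0.996) and Dyrk1b (0.99), and Cx3cl1 like Med18 (0.94), Rps3 (0.94) and Ahcy (0.94). These are the highest values of a search over all those genes, and carry no test.

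Some chemokine genes outside the set were detected in these cultures too. Of 30 other ligands 29 had a probe and 12 were tested, of which 9 were lower and 3 higher in hom than in wt MEF, with a median of −0.33 against 0.02 for all genes. By limma 0 were called and 1, Cxcl9, was lower at an unadjusted p under 0.05, against 1.42% of all genes. Cxcl9 and Pf4 were detected on no hom array and so entered through het and wt arrays. Cxcl9, an attractant of T cells induced by interferon gamma, was not detected on any hom array and was at least 1.42-fold lower in hom than in wt MEF. Cxcl10 differed by −1.63 ± 0.76, Ccl3 by −1.62 ± 0.76 and Ccl4 by −1.59 ± 0.95 (SE, limma adjusted p = 0.999 each), the last pair encoding macrophage inflammatory proteins. Ccl11, which lies between Ccl7 and Ccl12 and encodes the eosinophil attractant eotaxin, was at 5.94, 5.96 and 5.85 on hom arrays, 7.16, 6.20, 5.60 and 6.22 on het arrays, and 5.93, 5.92, 5.87 and 6.73 on wt arrays. Ccl11 was highest on het 1 and wt 4, and its hom and wt values overlapped. Of 23 chemokine receptors 22 had a probe and 2 were tested, Ackr1 at 0.19 ± 0.25 and Cx3cr1 at −0.17 ± 0.56 (SE, hom minus wt). Ccr1, Ccr2, Cxcr2 and Cxcr4, the receptors of Ccl9, Ccl2, Cxcl1 and Cxcl12 products, were not detected on any MEF array.

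Of 33 genes of the NF-kappaB and cytokine pathway 31 had a probe and 22 were tested. In hom minus wt 17 were lower and 5 higher, with a median of −0.22 against 0.02 for all genes. By limma 0 were called and 3, Lcn2, Ptx3 and Nfkbiz, were lower at an unadjusted p under 0.05, against 1.42% of all genes. Lcn2, Lif, Nfkb2 and Tnf were detected on no hom array and so could enter the test only through het and wt arrays, and of the other 18 genes 13 were lower, with a median of −0.15. Lcn2, which encodes the iron-sequestering lipocalin 2, was not detected in hom MEF and was at least 2.83-fold lower there. Nfkbiz, an NF-kappaB cofactor, differed by −1.07 ± 0.44, the pentraxin gene Ptx3 by −0.51 ± 0.20 and the adhesion molecule Vcam1 by −0.44 ± 0.20 (SE, limma adjusted p = 0.999 each). In hom minus het 21 of the 22 were lower, with a median of −0.45 against 0.01 for all genes, of which 47.2% were lower. Lcn2, Lif, Nfkb2 and Tnf again entered through het and wt arrays, and of the other 18 genes 17 were lower, with a median of −0.36. In het minus wt 15 were higher, with a median of 0.08 against 0.0054 for all genes, of which 48.4% were lower. None was called in either, and 2 (Ptx3 and Vcam1) were lower at an unadjusted p under 0.05 in hom minus het, against 0.578% of all genes, and 0 in het minus wt. Of 22 genes of the interferon response 20 had a probe and 17 were tested, and all 17 were lower in hom than in wt MEF, with a median of −0.88 against 0.02 for all genes, of which 45.9% were lower. By limma 0 were called and 6 were lower at an unadjusted p under 0.05, against 1.42% of all genes. Irf7, Mx2, Oasl1 and Rsad2 were detected on no hom array and so entered through het and wt arrays, which fixed their direction. The median of the other 13 was −0.88 as well. Isg15, a ubiquitin-like modifier, differed by −2.38 ± 0.87 and Oasl2 by −1.96 ± 0.71. Rsad2 was at least 1.93-fold lower and Oasl1 at least 1.25-fold lower, neither being detected in hom MEF. All 17 were also lower in het than in wt, with a median of −0.53, where 48.4% of all genes were lower. In hom minus het all 17 were lower, with a median of −0.35, where 47.2% of all genes were lower. The 4 genes undetected in hom MEF entered that comparison too through het and wt arrays. Without them its median was −0.35 as well. None of the 17 was called in either comparison. Rsad2, 1 of those 4, was the 1 gene lower at an unadjusted p under 0.05 in hom minus het, against 0.578% of all genes. In het minus wt there were 0.

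In ESC most of these genes were not detected. Cxcl1, Cxcl2, Ccl5 and Ccl12 were detected on 0 of 9 ESC arrays, Ccl2 on 1, Ccl9 and Cx3cl1 on 2 each, Ccl7 on 6 and Cxcl12 on 9. With all 20 arrays normalized together, 8 of the 9 genes were called lower in wt ESC than in wt MEF and 0 higher, where 25.8% of the 17067 probes tested were called lower and 56.2% called in either direction. Most members entered this test through their MEF levels, so the direction was partly fixed by the filter. Wt ESC and wt MEF shared no slide, so cell type was not separated from slide. Cxcl1 was at least 42.8-fold lower in wt ESC (difference −6.08 ± 0.58, SE, limma adjusted p = 1.2e-07), Ccl2 at least 13.7-fold and Ccl9 at least 7.67-fold. Cxcl12, detected in both, averaged 5.87 ± 0.16 in wt ESC and 10.74 ± 0.38 in wt MEF (SD, n = 3 and 4), or 3.42% of the MEF level. Ccl7 was 4.80 ± 0.82 lower on the log2 scale, or 3.58% of the MEF level. The bound was at least 3.18-fold lower for Ccl12, at least 2.61-fold lower for Cx3cl1 and at least 1.38-fold lower for Ccl5, and Cxcl2 did not pass (limma adjusted p = 0.109).

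Ccl7 and Cxcl12 alone were tested for genotype within ESC. Ccl7 was at 5.78, 7.73 and 4.95 on hom arrays, 6.01, 8.19 and 4.46 on het arrays, and 5.35, 6.88 and 4.81 on wt arrays. The array numbered 2 was the highest of each genotype and the array numbered 3 the lowest, and the genotypes overlapped. The hom minus wt difference of Ccl7 was 0.47 ± 0.95 (SE, limma adjusted p = 0.869), and het minus wt was 0.54 ± 0.95 (SE, limma adjusted p = 0.969). Cxcl12 was at 6.34, 5.81 and 6.87 on hom arrays, 5.95, 6.16 and 6.62 on het arrays, and 5.73, 5.55 and 5.85 on wt arrays. Its hom minus wt difference was 0.63 ± 0.26 (SE, limma adjusted p = 0.388), with values that overlapped. Het minus wt was 0.54 ± 0.26 (SE, limma adjusted p = 0.952), with all het above all wt values, as for 3.4% of genes. A second Cxcl12 probe gave 0.07 ± 0.17 in hom minus wt and 0.32 ± 0.17 in het minus wt (SE), with overlap in both. Arrays of the same number deviated together in ESC, and within numbers 1, 2 and 3 Cxcl12 differed by 0.61, 0.26 and 1.02 in hom minus wt and by 0.22, 0.61 and 0.78 in het minus wt. Ccl7 differed by 0.44, 0.85 and 0.14 in hom minus wt and by 0.67, 1.30 and −0.36 in het minus wt. With replicate number as a block the limma adjusted p of Cxcl12 was 0.054 in hom minus wt and 0.194 in het minus wt. That of Ccl7 was 0.222 and 0.331, so none passed. Hom and wt ESC shared no slide, so genotype was not separated from slide in these hom minus wt values. Of the het ESC arrays only het 1 shared a slide with wt ESC, so het minus wt was only partly separated from slide. No probe of 14502 was called in either comparison (0%), with 12.1% and 4.54% at an unadjusted p under 0.05 in hom minus wt and het minus wt.

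The hom minus wt difference itself was compared between cell types over all 20 arrays. It was lower in MEF than in ESC for 8 of the 9 genes and higher for Cx3cl1, and 5 genes passed an unadjusted p under 0.05, among them Ccl9 at −1.71 ± 0.61 (SE, limma adjusted p = 0.878). None was called, as was no probe of 17067 (0%), and 5.2% of probes passed an unadjusted p under 0.05. For the genes not detected in ESC this comparison sets MEF values against a floor.

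Arrays of ESC differed by replicate number in all genotypes. Number 2 exceeded number 1 by 1.89 on average for Ccl7. Fibroblast and macrophage markers were also highest at number 2. The fibroblast markers' summed intensity on arrays numbered 2 was 5006 in hom, 7240 in het and 4239 in wt ESC, and between 1164 and 1762 on the other 6 arrays. That of the macrophage markers was 4132 in hom, 3869 in het and 3100 in wt ESC at number 2, and between 1866 and 2998 on the other 6 arrays. Among the fibroblast markers Col3a1 was detected on no ESC array and Pdgfrb on 1, while Col1a1, Dcn and Thy1 were detected on all 9. Of the 15 macrophage markers read, 3 to 7 were detected per ESC array. Adgre1, Cd14, Aif1, Tyrobp, Mrc1, C1qa and Cx3cr1 were detected on no ESC array, while Lyz1, Laptm5 and Coro1a were detected on all 9. The part of both lists in the Ccl7 level was not tested. Pluripotency markers, among them Pou5f1 and Nanog, were detected on all 9 ESC arrays.

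**Figure D4:**
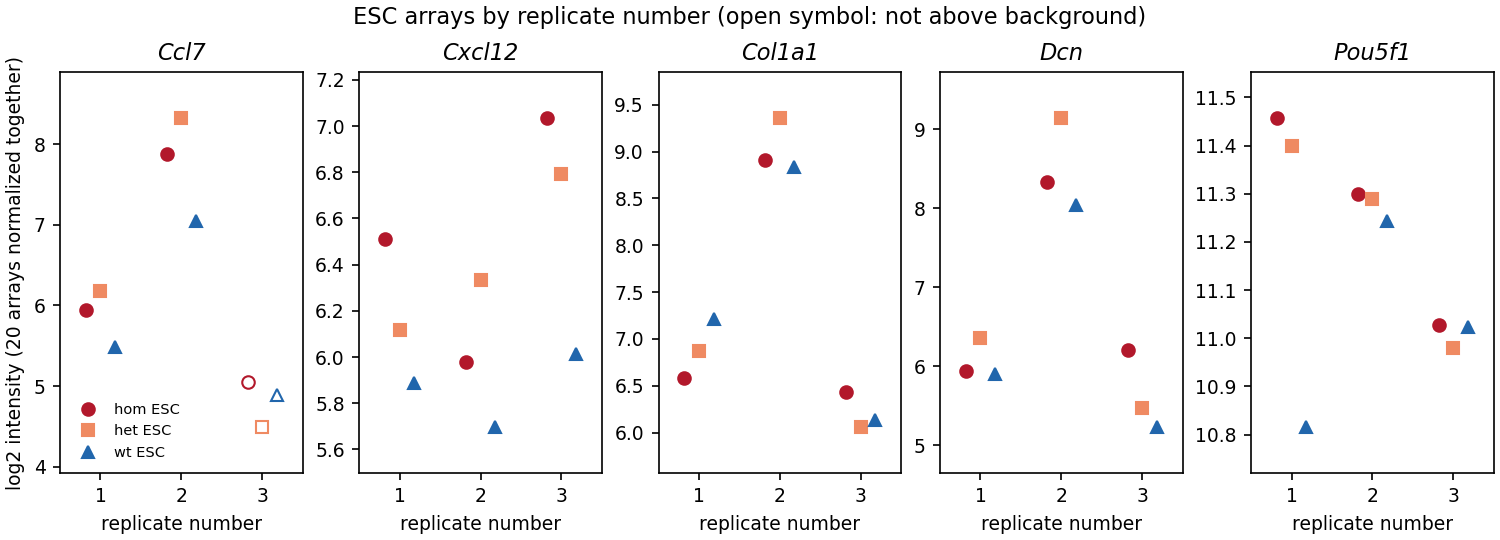
Log2 intensity on the 9 ESC arrays, from all 20 arrays normalized together, of Ccl7, Cxcl12, the fibroblast markers Col1a1 and Dcn and the pluripotency marker Pou5f1, by replicate number, with a symbol for each genotype (hom, het, wt) and open symbols where the probe was not detected. Ccl7, Col1a1 and Dcn are highest at number 2 in all 3 genotypes, and Cxcl12 is highest at number 3.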

How the data were processed

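The deposited table gave, per the file headers, a mean bead intensity, its standard error, the number of beads and a detection p-value for each probe and array, with no normalization between arrays. A second deposited table held intensity values that the authors had normalized, by steps not given in the sources used here, and it served as an alternative. Per the submitters' processing notes, the tools were BeadStudio and limma, with no version given. Probes were matched to genes through the platform annotation (34885 of 45281 had 1 gene, 18 several and 10378 none). The genome build of the arrays was not given in the sources used here.

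Intensities were background corrected and quantile normalized within each cell type with neqc (offset 16) in limma 3.58.1 under R 4.3.3. Probes detected on at least 3 arrays were fitted as 1 factor of 3 genotypes (lmFit, eBayes with a trend; 15125 probes and 8 residual degrees of freedom in MEF, 14502 and 6 in ESC), and adjusted p is Benjamini-Hochberg over all probes tested. ESC and MEF were compared after joint normalization of the 20 arrays (17067 probes and 14 residual degrees of freedom). Where no array of a group detected the probe, the fold is a bound. It sets the brighter group's mean against that of the dim group, with each dim array at its lowest detected signal or at the probe's signal if that was higher. The method was tested on simulated data. Promoter sequences are those of RefSeq, GRCm38.p6. Figures were drawn with matplotlib 3.10.9.

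The genes, lists, markers and alternatives were chosen with earlier results of these data known. Named besides the members were Mysm1, the 3 genes most like each member, and up to 4 genes of each list by smallest p in hom minus wt MEF. Nfkbia, Tnf and Cxcl10 were shown array by array, and Ccl11 was named, after their values were seen. Alternatives covered background correction, offset, normalization, the deposited normalized values, the filter, the choice of probe, slide, the replicate block, array weights, the first principal component and leaving out each array. Equal replicate numbers were checked for pairing by correlating arrays once group means were subtracted, and in ESC same-numbered arrays had r from 0.367 to 0.773 and others from −0.622 to 0.204, so the numbers pair the ESC samples, which the labels do not state.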

Additional observations from a re-analysis of the deposited data

Results flagged for a closer look

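Cxcl2 in MEF wt 4 was at a log2 intensity of 7.14, far from the other wt MEF arrays, which lay between 4.61 and 5.04. The gap of this array to its nearest neighbour was 0.831 of the whole range of the group. Among 18 groups of at least 4 arrays screened in this way this was the only one set apart, and chance sets apart about 1 in 20. The same array also held the highest wt level of Ccl2, Ccl7, Cxcl1 and Ccl5.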

How the results depend on the processing

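The number of members called kept its side of the threshold under all alternatives except 3. In hom minus wt MEF it was 1 (Ccl12) with the first component as covariate, and in hom minus het MEF it was 2 (Ccl9 and Ccl12) with array weights and 5 within slide 4. It was 0 whichever array was left out, and 8 in wt ESC minus wt MEF each time. The cause was not tested. Single members that changed direction were these. In hom minus wt MEF, Cxcl12 was −0.0068 with the component and −0.015 to 0.39 with arrays left out, and Cxcl2 was 1.00 with slide as a fixed block. In het minus wt MEF with array weights, Ccl12 was 0.33, Ccl2 0.52, Ccl5 0.065, Ccl7 0.34, Ccl9 0.025, Cxcl1 0.40, Cxcl12 0.085 and Cxcl2 0.97. With slide as a fixed block Ccl12 was 0.17, Cxcl12 0.048 and Cxcl2 0.84, and within slide 1 Ccl12 was 0.17 and Cxcl12 0.049. Cxcl2 was 0.0013 without background correction, 0.012 at an offset of 50 and 0.0072 in the deposited normalized values. With arrays left out, Ccl7 ranged from −0.74 to 0.039, Cxcl1 from −1.03 to 0.0063 and Cxcl2 from −0.31 to 0.28. In hom minus het MEF, Cx3cl1 was 0.30 with slide as a fixed block, 0.30 within slide 4 and −0.19 to 0.20 with arrays left out, and Cxcl2 was 0.16 with slide as a fixed block. The Cxcl12 difference between cell types was 0.20 with the mean of all its probes. Ccl7 in ESC ranged from −0.31 to 1.08 in hom minus wt and from −0.44 to 1.42 in het minus wt with arrays left out, the low ends being without the array numbered 2 of the genotype. In MEF 3 of 11 arrays were closest to one of their own number, so the numbers do not pair them, and the replicate block called 0 members. In ESC the replicate block called 0 members as well, with 601 probes in hom minus wt and 37 in het minus wt, against 0 without it, and changed no call of a member. Over all probes, hom minus wt MEF called 1, against 4 with the component and 0 with slide as a fixed block or the replicate block, and hom minus het MEF called 1, against 148 with array weights. Levels near background, as for Cxcl2 and Ccl5, have bounds rather than folds.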
